A study of Mus musculus with 2 samples.

Results

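The genes described here are the core of the leukaemia inhibitory factor (LIF) pathway in mouse embryonic stem (ES) cells: the receptor chains Lifr and Il6st, the kinases Jak1, Jak2 and Tyk2, the transcription factor Stat3, its feedback inhibitor Socs3, and Ptpn11, which encodes the phosphatase SHP2. They were chosen by name, with earlier results of these data known. They are 8 of the 21911 protein-coding genes of GENCODE M21 on chromosomes 1 to 19, X and Y. Histone H3 trimethylated at lysine 36 (H3K36me3) was profiled in E14TG2a.4, a male mouse ES cell line of strain 129/Ola, by sequencing of immunoprecipitated chromatin (ChIP-seq). The study holds 1 group of 2 biological replicates, taken from separate biosamples of that line, at an embryonic stage with an age of 3.5 days. No treatment, genotype change or culture condition is given in the labels, so no conditions could be compared, no test was made, and the spread between 2 samples is the only error available.

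LIF binds LIFR, which then pairs with gp130, the protein of Il6st. Janus kinases (JAKs) bound to the receptor tails phosphorylate them and STAT3, and STAT3 moves to the nucleus and keeps mouse ES cells undifferentiated. The enzyme SETD2 travels with elongating RNA polymerase II and places H3K36me3, so that the mark is known to lie over the bodies of transcribed genes and to build up towards their 3′ ends.

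The measure is the covered share, the percent of bases of the annotated gene body that lie in the peaks called by the authors for that replicate. A gene was called marked where at least 10% of its body was covered in each replicate. The peak sets held 107779 peaks in replicate 1 and 98185 in replicate 2, and the number of reads behind them is unknown. The labelled cell type was checked against marker genes: 6 of 6 ES cell markers were marked (Pou5f1, Sox2, Nanog, Zfp42, Esrrb and Tdgf1), while all 4 feeder fibroblast markers and all 4 blood cell markers were at 0 in both replicates. Among all coding genes 37.2% were marked and 50.1% had no covered base in either replicate, so a marker at 0 is weak evidence by itself. Sox2 lies wholly inside other annotated sequence, so its value could not be told apart from that of the overlapping annotation.

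The 5′ starts of 3 of these genes are shown first, because the covered stretches described below begin well downstream of some starts and are missing past another. Each line gives the 250 bases before a start, read 5′ to 3′ on the strand of the gene, with CG dinucleotides in capitals. The coordinates are on GRCm38 (mm10), and the letters are those of the reference strain, not of the cells studied. The first Lifr line lies before the GENCODE start of the transcript Lifr-208, at chr15:7090364-7090613 on the plus strand, and was read from the genome. The others precede RefSeq starts, at chr15:7129322-7129571 and chr15:7140292-7140541 for Lifr, at chr4:101265224-101265473 on the minus strand for Jak1, and at chr19:29251553-29251802 on the plus strand for Jak2.
Lifr, outermost start: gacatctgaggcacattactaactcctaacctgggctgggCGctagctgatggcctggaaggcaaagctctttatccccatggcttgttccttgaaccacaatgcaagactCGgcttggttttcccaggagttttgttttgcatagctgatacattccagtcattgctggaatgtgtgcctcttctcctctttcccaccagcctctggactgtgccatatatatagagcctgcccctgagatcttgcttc
Lifr, middle start: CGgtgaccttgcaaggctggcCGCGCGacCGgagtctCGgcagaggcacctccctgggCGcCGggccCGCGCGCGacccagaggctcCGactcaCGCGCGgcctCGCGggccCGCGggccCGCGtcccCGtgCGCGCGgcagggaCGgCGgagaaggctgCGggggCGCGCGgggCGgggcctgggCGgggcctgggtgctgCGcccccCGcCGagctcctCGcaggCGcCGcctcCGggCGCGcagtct
Lifr, inner start: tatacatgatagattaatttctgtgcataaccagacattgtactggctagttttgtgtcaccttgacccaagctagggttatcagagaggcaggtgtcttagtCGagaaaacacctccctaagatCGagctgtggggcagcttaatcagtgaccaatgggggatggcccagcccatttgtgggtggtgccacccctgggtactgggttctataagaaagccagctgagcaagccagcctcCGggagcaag
Jak1: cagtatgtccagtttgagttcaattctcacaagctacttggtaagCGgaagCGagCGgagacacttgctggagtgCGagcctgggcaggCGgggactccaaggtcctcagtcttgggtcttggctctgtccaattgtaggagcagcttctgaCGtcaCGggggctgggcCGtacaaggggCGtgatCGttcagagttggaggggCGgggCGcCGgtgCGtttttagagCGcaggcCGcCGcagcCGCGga
Jak2: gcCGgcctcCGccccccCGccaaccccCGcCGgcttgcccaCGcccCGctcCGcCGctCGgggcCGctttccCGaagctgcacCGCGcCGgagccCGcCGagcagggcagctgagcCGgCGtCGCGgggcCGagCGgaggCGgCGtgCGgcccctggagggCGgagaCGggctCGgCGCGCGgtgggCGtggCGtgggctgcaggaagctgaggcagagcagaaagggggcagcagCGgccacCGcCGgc
The 250 bases held 2 CG dinucleotides at the outermost Lifr start, 43 at the middle one and 3 at the inner one. The Jak1 start had 19 and the Jak2 start 37. The median over 20150 such sequences before RefSeq starts of coding genes was 10, a gene with several starts being counted at each. Among the other members the number was 13 at Stat3, 19 at Tyk2, 26 at Il6st, 26 at Socs3 and 31 at Ptpn11.

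H3K36me3 peaks lay over 7 of the 8 genes at the level called marked, and Jak2 alone had none. Among all coding genes 37.2% were marked. The median covered share over the 8 genes was 49.9% in replicate 1 and 51.9% in replicate 2 (mean 50.9% ± 1.42, SD, n = 2), with Jak2 counted as 0. The median of all coding genes was 0 in both replicates. The median of all 8155 marked genes was 57.1% in replicate 1 and 52.9% in replicate 2, so the median member, Jak2 included, lay close to a typical marked gene. At least 50% of the body was covered in each replicate in 4 of the 8 genes (Il6st, Stat3, Ptpn11 and Socs3), against 19.3% of all coding genes.

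Ordered by mean covered share, Il6st came first with 79.2% ± 2.05 (SD, n = 2), followed by Stat3 with 72.5% ± 8.69, Ptpn11 with 61.2% ± 3.66, and Socs3 with 60.4% ± 11.4. Lifr had 46.3% ± 1.59, Tyk2 43.4% ± 0.429, Jak1 10.7% ± 0.0883, and Jak2 0 in both replicates. Il6st lay above Stat3 in each replicate, although the ranges of their replicate values overlapped. Stat3 and Socs3 changed order between the replicates, as did Ptpn11 and Socs3, so the order within each of these pairs is not settled in these samples. Lifr, Tyk2, Jak1 and Jak2 each lay below the gene before it in both replicates. Replicate 1 was the higher one for Lifr, Il6st, Jak1, Stat3 and Ptpn11, and replicate 2 for Tyk2 and Socs3.

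**Figure D1:**
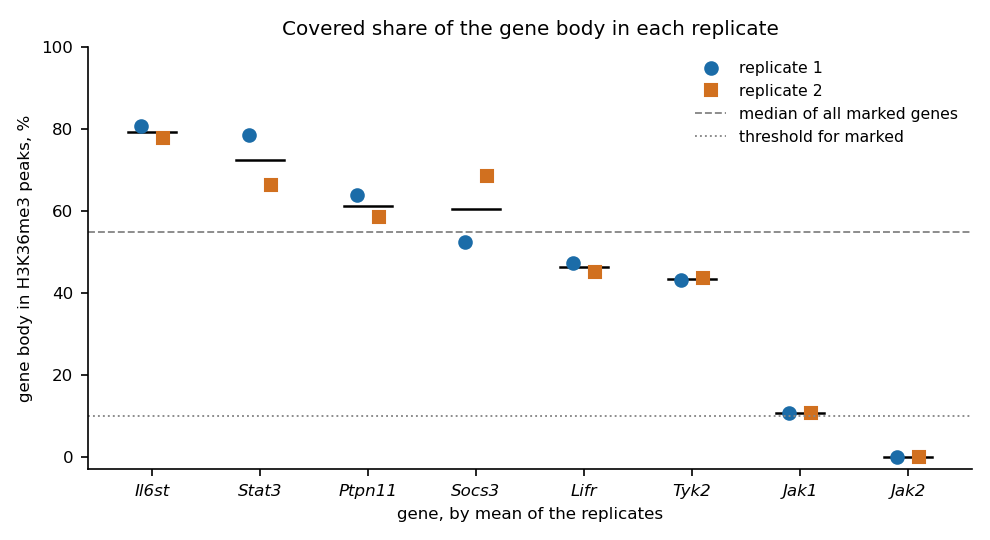
Covered share of the gene body (y axis, %) of the 8 genes (x axis, ordered by mean) in replicate 1 (circles) and replicate 2 (squares), with the mean as a bar. The dashed line is the median of all marked genes and the dotted line the 10% threshold; Jak1 sits on that threshold and Jak2 at 0.

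The receptor chains were covered to different extents. Lifr encodes the LIF-binding chain and lies at chr15:7090614-7197489 on the plus strand, a span of 106.9 kb. Its covered share was 47.4% in replicate 1 and 45.1% in replicate 2, in 23 peaks each. Of the bases covered in either replicate, 88.5% were covered in both. The gene was split into a bare 5′ part and a covered 3′ part: of 3 equal segments, the 5′ one had no covered base in either sample, the middle one had 50.9% in replicate 1 and 47.6% in replicate 2, and the 3′ one had 91.3% and 87.8%.

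The split within Lifr lay just past an internal start. The annotation gives coding transcripts that begin at the outermost start (Lifr-208), 38.9 kb further on (Lifr-201, at chr15:7129559, next to the CG-rich middle start shown above), 49.9 kb on (Lifr-204) and 63.7 kb on (Lifr-203). The first covered base lay 40.2 kb from the outermost start in both replicates, which is 1.26 kb past the start of Lifr-201 in replicate 1 and 1.27 kb past it in replicate 2. No base between the outermost start and that of Lifr-201 was covered. Counted from the Lifr-201 start to the end of the gene, the covered share was 74.6% in replicate 1 and 71.0% in replicate 2, and counted from Lifr-203 it was 91.4% and 89.6%. All 19 exons of Lifr-203, the transcript with the longest coding sequence, were covered over at least 50% of their length in each replicate. Between the middle start and that of Lifr-203 the peaks were sparse, with a gap of 4.40 kb in each replicate that began 52.5 kb (replicate 1) and 52.6 kb (replicate 2) from the outermost start.

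Il6st, which encodes the signal-transducing chain gp130 shared by the interleukin-6 family, lies at chr13:112464070-112510086 on the plus strand over 46.0 kb. It was covered over 80.7% in replicate 1 and 77.8% in replicate 2, the highest mean of the 8 genes, and 81.5% of marked genes had a lower one. Its peaks began 2.44 kb (replicate 1) and 2.35 kb (replicate 2) from the start. The first intron of 8.34 kb had 33.2% of its bases covered in replicate 1 and 18.6% in replicate 2, and from the second exon to the end 91.6% and 91.3% were covered. The fold enrichment that the authors' caller gives each peak, averaged over the gene body with uncovered bases counted as 0, was 7.25 in replicate 1 and 10.4 in replicate 2, and 87.1% of marked genes had a lower mean of it. For Lifr the same quantity was 3.46 in replicate 1 and 4.10 in replicate 2, against medians of 3.55 and 4.11 over all marked genes.

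**Figure D2:**
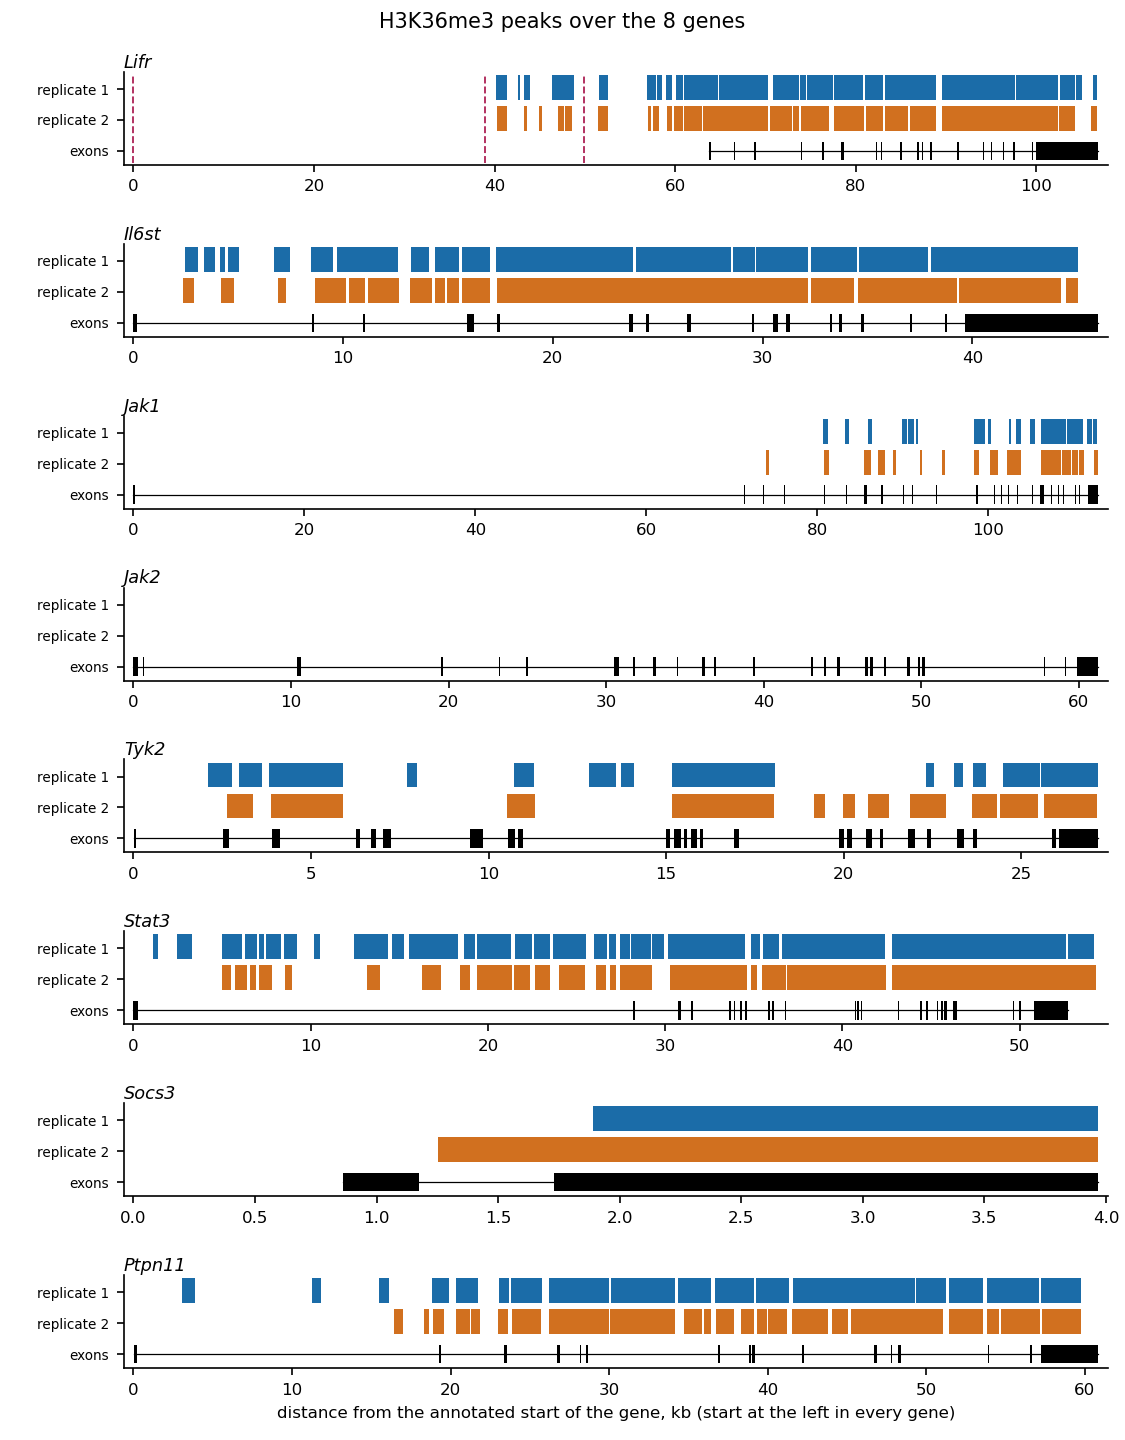
Peaks of replicate 1 (upper bars) and replicate 2 (lower bars) and the exons of the transcript with the longest coding sequence (black), by distance from the annotated start of each gene in kb. Dashed lines in Lifr mark the starts at 0, 38.9 and 49.9 kb; peaks begin 40.2 kb from the first of them, Jak1 has peaks only past 74.0 kb, and Jak2 has none.

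The 3 kinases of the pathway differed widely: Tyk2 was marked over much of its body, Jak1 near its 3′ end, and Jak2 not at all. Jak1, the kinase on which signalling through gp130 mainly depends, lies at chr4:101152367-101265282 on the minus strand over 112.9 kb. It was covered over 10.7% in replicate 1 and 10.6% in replicate 2, just above the 10% threshold, and 0.123% of marked genes had a lower mean. Its peaks were short and close to the 3′ end: of 10 equal parts, the last was covered over 64.3% in replicate 1 and 62.2% in replicate 2, and the first 6 not at all. The first intron of 71.2 kb was bare in both replicates, as were exons 2 to 4, and the 41.5 kb from the second exon to the end were covered over 29.2% in replicate 1 and 28.8% in replicate 2. At least 50% of the length was covered in 15 of the 25 exons in replicate 1 and in 14 in replicate 2.

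The shares of Jak1 agreed between replicates more closely than the places did. Of the bases covered in either replicate, 43.2% were covered in both, the lowest of the 7 marked genes, whose other values ran upwards from 62.3% (Tyk2). With only peaks at −log10 q of at least 5, 7.35% of Jak1 was covered in replicate 1 and 8.93% in replicate 2, so it was no longer marked. In the authors' unthresholded sets the shares were 16.4% and 16.6%, and in their pooled set 18.99%.

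Jak2, the kinase best known for signalling from the erythropoietin and growth hormone receptors and also able to bind gp130, lies at chr19:29251828-29313080 on the plus strand over 61.3 kb. No base of it was covered in replicate 1 or in replicate 2. It was also 0 in the unthresholded set of each replicate, in both sets of peaks found in both replicates and in the pooled set. Among all coding genes, 50.1% were likewise without a covered base in both. Of 3062 words of 32 bases sampled along Jak2, 96.3% occur once in the genome, against a range of 91.5% (Tyk2) to 100% (Socs3) over the 7 marked genes, so nearly all of the gene is unique sequence at this length. Since the depth is unknown, the value says only that no peak was called there.

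Tyk2, which encodes a kinase that also serves interferon and interleukin-12 receptors, lies at chr9:21104068-21131243 on the minus strand over 27.2 kb. Its covered share was 43.1% in replicate 1 and 43.7% in replicate 2, in separate blocks. In part 2 of 10 equal parts 85.8% was covered in replicate 1 and 81.5% in replicate 2, and in part 10 97.0% and 91.9%, with lower shares between. Part 8 had no covered base in replicate 1 and 45.4% in replicate 2, so the places of its peaks differed between the samples there.

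Peaks over Tyk2 could not be assigned to it alone. The antisense gene 1700084C06Rik runs over 24.3 kb of its 27.2 kb and on past its 3′ end. The shared stretch was covered over 45.3% in replicate 1 and 48.0% in replicate 2. The 2.85 kb of Tyk2 outside the antisense gene, all at its 5′ end, had 24.4% covered in replicate 1 and 7.16% in replicate 2, and the 12.3 kb of the antisense gene past the end of Tyk2 had 29.6% and 11.9%. Upstream, 1.98 kb before Tyk2 on the same strand, ends Cdc37, which encodes a chaperone partner of kinases. It was covered over 73.8% in replicate 1 and 71.5% in replicate 2. The last covered base of Cdc37 lay 2.62 kb (replicate 1) and 2.63 kb (replicate 2) before its own end. ChIP-seq carries no strand, and the part of either neighbour in the Tyk2 values was not tested.

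Stat3, the transcription factor that these kinases activate, lies at chr11:100885098-100939540 on the minus strand over 54.4 kb. It was covered over 78.6% in replicate 1 and 66.3% in replicate 2, a difference of more than 12 points where the median marked gene differed by 3.68 points. The difference lay in the first intron of 27.9 kb, where 65.8% was covered in replicate 1 and 42.6% in replicate 2. From the second exon to the end 93.7% was covered in replicate 1 and 92.2% in replicate 2. At least 50% of the length was covered in 22 of the 24 exons in replicate 1 and in 23 in replicate 2.

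Stat3 met a neighbour end to end. Stat5a, which encodes a related transcription factor, lies on the other strand and the annotated ends of the genes overlap by 72 bp. The last 5 kb of Stat3 were covered over 92.2% in replicate 1 and 97.6% in replicate 2, and the last 5 kb of Stat5a over 8.58% and 12.2%. Of the first kilobase past the end of Stat3, 26.1% was covered in replicate 1 and 22.7% in replicate 2, and of the next kilobase 16.8% and 38.3%. Between 2 and 15 kb past it no base was covered in either replicate. Over its whole body Stat5a had 1.66% in replicate 1 and 2.36% in replicate 2, in 1 peak each that stopped 0.811 kb (replicate 1) and 0.845 kb (replicate 2) before its end, and Stat5b, a close relative on the same chromosome, had none.

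Jak1 also met a neighbour end to end. Raver2, which encodes an RNA-binding protein, overlaps the end of Jak1 by 4 bp. The last 5 kb of Jak1 were covered over 81.1% in replicate 1 and 72.4% in replicate 2, and the last 5 kb of Raver2 over 28.8% and 35.3%. Of the first kilobase past the end of Jak1, 43.4% was covered in replicate 1 and 18.1% in replicate 2, and of the next kilobase 58.4% and 63.0%. Raver2 as a whole had 4.02% covered in replicate 1 and 4.23% in replicate 2, not only at this end. Its middle segment had 6.89% in replicate 1 and 6.35% in replicate 2, and its 3′ segment 5.17% and 6.35%. The peaks in the last kilobases of Jak1 and Raver2 could not be assigned to either gene.

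**Figure D3:**
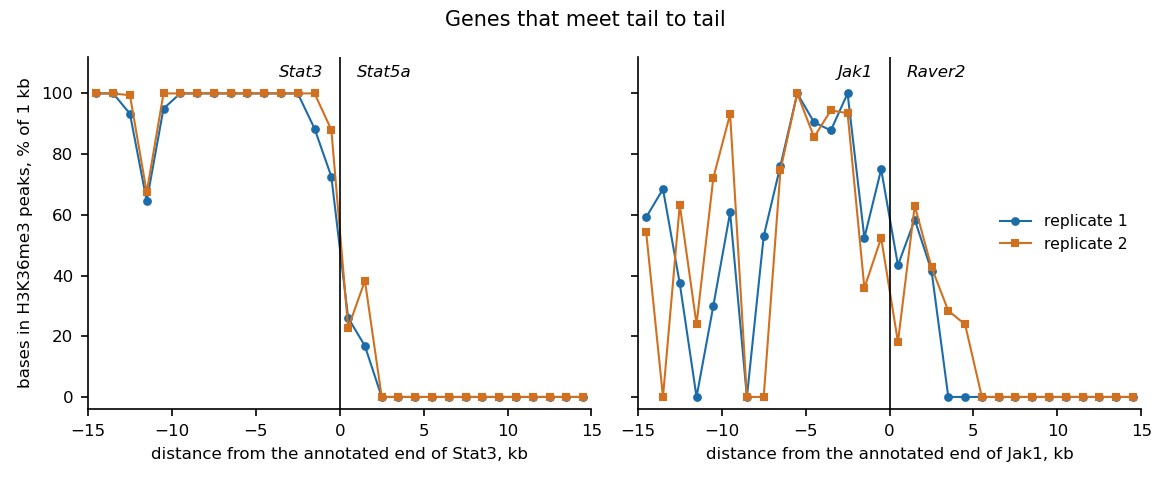
Bases in peaks (y axis, % of each 1 kb) against distance from the annotated end of Stat3 (left) and Jak1 (right) in kb, with the gene itself at negative distances and the facing neighbour at positive ones, in replicate 1 (circles) and replicate 2 (squares). Coverage in Stat5a is 0 from 2 kb past the end of Stat3 to the edge of the plot, and coverage in Raver2 is 0 from 5 kb past the end of Jak1 to that edge.

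Ptpn11 encodes SHP2, the tyrosine phosphatase that binds phosphorylated gp130 and links it to the Ras and ERK pathway. It lies at chr5:121130533-121191397 on the minus strand over 60.9 kb and was covered over 63.8% in replicate 1 and 58.6% in replicate 2. Most of its first intron was bare: the 19.1 kb had 12.8% covered in replicate 1 and 6.86% in replicate 2, and from the second exon on 87.6% and 82.7% were covered. The first exon had no covered base, and 15 of the 16 exons were covered over at least 50% of their length in each replicate. Replicate 1 had peaks from 3.05 kb past the start and replicate 2 from 16.4 kb.

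Socs3, the feedback inhibitor that STAT3 induces and that blocks gp130 and the JAKs, is the shortest of these genes, at chr11:117966079-117970047 on the minus strand over 3.97 kb. A single peak covered 52.4% of it in replicate 1 and 68.4% in replicate 2. Both peaks covered the whole 3′ segment and ran past the annotated end, to 5.04 kb (replicate 1) and 5.45 kb (replicate 2) from the start. Of the 5 kb past the annotated end, 34.2% was covered in replicate 1, in part by bases outside this peak, and 29.7% in replicate 2. The 2 peaks began 1.89 kb (replicate 1) and 1.25 kb (replicate 2) from the start. This upstream edge made the difference between the covered shares of the gene body. The authors' fold of this peak was 12.2 in replicate 1, the highest of any peak over the 8 genes in that sample, and 16.2 in replicate 2, where a peak of Il6st had 17.4.

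The sequence before the RefSeq start of Socs3, at chr11:117969367-117969616 on the minus strand, is shown because Socs3 is a STAT3 target and because it was the only one of 9 RefSeq promoters of these genes with the letters TTCNNNGAA, the core that STAT dimers recognise. The match is in capitals.
Socs3: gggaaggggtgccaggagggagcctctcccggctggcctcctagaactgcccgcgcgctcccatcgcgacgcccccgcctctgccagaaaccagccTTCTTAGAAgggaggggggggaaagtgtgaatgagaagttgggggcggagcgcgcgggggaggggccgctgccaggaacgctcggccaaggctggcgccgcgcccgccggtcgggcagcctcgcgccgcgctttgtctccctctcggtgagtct
The match TTCTTAGAA begins 154 bases before the start. The motif reads the same on both strands, and 8.30% of 32851 RefSeq promoters of 300 bases hold it. The sequence before the outermost Lifr start, which is a GENCODE start and not among the 9, holds TTCCTTGAA 163 bases before it. Neither match was covered by a peak, and a match of letters does not show binding.

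No base within 500 bp of the outermost annotated start was covered in any of the 8 genes in either replicate. The share of all coding genes with such a bare start was not counted, so this is not shown to set the members apart. Inner starts can differ: that of the Lifr transcript with the longest coding sequence lay in a peak in both replicates. Of the 7 marked genes, 3 (Lifr, Jak1 and Socs3) had no covered base in the first of 10 equal parts in each replicate, against 56.1% of marked genes of at least 3 kb. The 3′ segment was covered more than the 5′ segment in each replicate in 6 of the 7, against 85.0% of such genes. The exception was Tyk2, where the difference was −2.67 points in replicate 1 and 30.1 points in replicate 2. The median difference over the 7 was 38.2 points in replicate 1 and 72.7 points in replicate 2 (mean 55.4 ± 24.4, SD, n = 2), and over all such genes 35.8 and 37.7 points.

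The gap between those medians came from Stat3, the middle gene in both replicates, with 38.2 points in replicate 1 and 72.7 in replicate 2. Socs3 had the highest difference, 100 points in replicate 1 and 94.7 in replicate 2, followed by Lifr with 91.3 and 87.8. Ptpn11 had 74.7 points in replicate 1 and 78.5 in replicate 2. Il6st, covered along most of its length, had 35.6 and 43.3, and Jak1, with little covered anywhere, had 32.2 and 30.8.

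**Figure D4:**
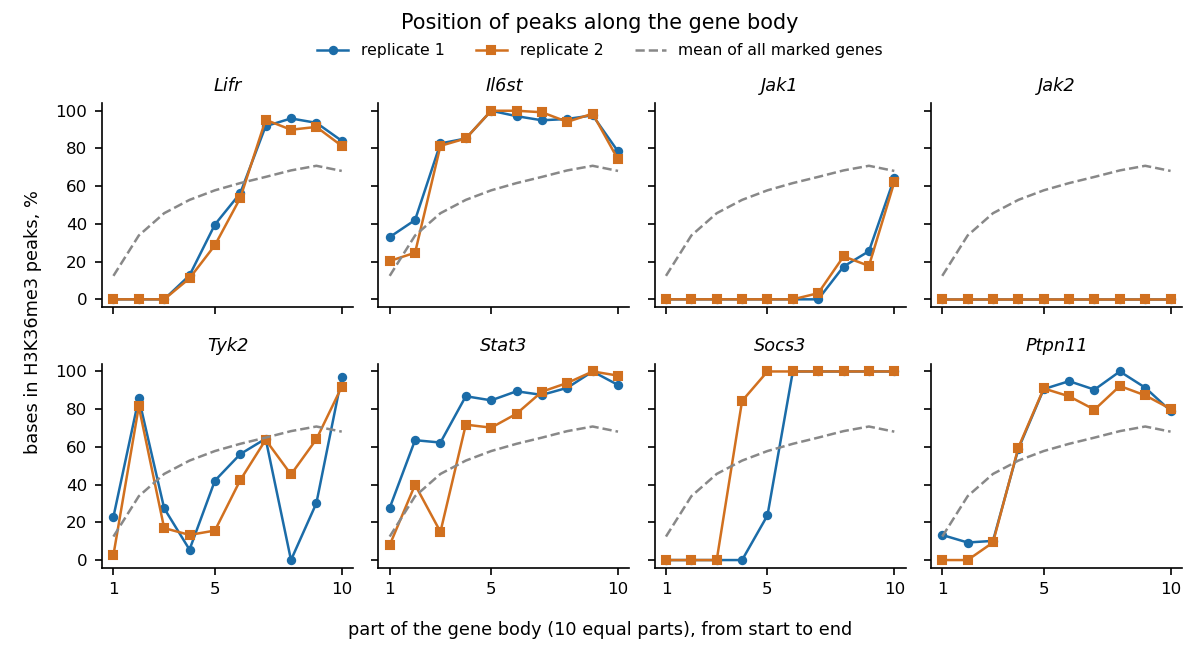
Share of bases in peaks (y axis, %) in each of 10 equal parts of the gene body from start to end (x axis) for the 8 genes, in replicate 1 (circles) and replicate 2 (squares), with the mean of all marked genes of at least 3 kb as a dashed line. Lifr, Socs3 and Ptpn11 pass from below 15% to above 80% within the gene, Il6st is high from part 3 on, Jak1 is covered at its end, and Jak2 is at 0 throughout.

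Exons were covered more than introns of the same gene in each replicate in 7 of the 7 marked genes, against 67.2% of marked genes with 2 or more exon blocks. The median difference over the 7 was 20.8 points in replicate 1 and 30.8 points in replicate 2, and over all such genes 11.7 and 14.2 points. Since coverage was also higher towards the 3′ end, the comparison was repeated within the 3′ segment. There exons were above introns in each replicate in 3 of the 6 genes that have both (Jak1, Tyk2 and Stat3) and below in the other 3 (Lifr, Il6st and Ptpn11), against 44.9% above and 25.6% below among all such genes, any difference being counted. Stat3 was close to a tie, with a mean difference of 1.05 ± 1.48 points (SD, n = 2), its exons at 94.2% in replicate 1 and 98.4% in replicate 2 and its introns at 94.2% and 96.3%.

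The values within the 3′ segment set Jak1 and Tyk2 apart from the well-covered genes. In Jak1, 55.1% of exon bases and 27.5% of intron bases were covered there in replicate 1, and 44.6% and 28.0% in replicate 2. In Tyk2 they were 67.9% and 27.6% in replicate 1, and 81.2% and 53.0% in replicate 2. In Ptpn11, where introns of the 3′ segment were covered over 94.1% in replicate 1 and 89.7% in replicate 2, the exons had 74.0% and 74.4%. The long last exon of Ptpn11 was bare at its end, with the last covered base 1.13 kb (replicate 1) and 1.09 kb (replicate 2) before the annotated end, and Il6st ended likewise, 0.993 kb and 0.984 kb before it.

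For each marked member, the marked gene of similar length with the closest profile was found from the root mean square (RMS) difference over the 10 parts in the 2 replicates, 20 values in all. The closest to Lifr was Rictor, of the mTOR complex, at 9.54 points among 752 genes compared, where the median gene lay at 41.5 points. The closest to Il6st was Gpr107 (8.18 points), to Stat3 Kdm4b (11.6 points), to Socs3 Coasy (12.0 points) and to Ptpn11 Chd8 (7.32 points). The closest to Jak1 was Pcdhga5 (5.28 points), a protocadherin gene of a cluster whose members share exons. Tyk2 had no close match, the nearest being Stard3nl at 23.6 points among 2299 genes.

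In the wider pathway, 29 of 54 listed genes were marked (53.7%, against 37.2% of all coding genes). The median covered share over the 54 was 17.5% in replicate 1 and 14.3% in replicate 2. It was 0 in both replicates for the receptor chains and for the ligands, as it was for all coding genes, and the lists are small, so a difference between them was not tested. Of 7 further receptor chains of the gp130 and related cytokine receptors, 2 were marked, and Osmr, Il6ra, Lepr and Csf3r, the receptors for oncostatin M, interleukin-6, leptin and granulocyte colony-stimulating factor, were at 0 in both replicates. Cntfr, the receptor for ciliary neurotrophic factor, had 0.695% in replicate 1 and 0 in replicate 2. The marked ones were Il11ra1 with 19.2% in replicate 1 and 18.1% in replicate 2, a record of 69.5 kb that overlaps 6 other coding genes, and Il27ra with 15.49% and 14.6%. Outside all other annotated genes, Il11ra1 had 10.2% covered in replicate 1 and 8.94% in replicate 2.

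Of 10 ligands, 2 were marked and 7 were at 0 in both replicates, among them Il6, Osm and Il11, against 37.2% marked and 50.1% without a covered base among all coding genes. In the unthresholded sets Osm had 10.9% covered in replicate 1 and 7.84% in replicate 2. Lif itself had 12.3% covered in replicate 1 and 11.5% in replicate 2, all of it in the 3′ segment, where 36.8% and 34.5% were covered. Cntf had 90.7% in replicate 1 and 65.0% in replicate 2, but it is only 1.97 kb long and lies wholly inside other annotated genes, among them the span of Zfp91, so its value could not be told apart from theirs.

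Of 6 other JAK and STAT genes, 2 were marked, against 37.2% of all coding genes. The median of this list was 5.12% in replicate 1 and 5.87% in replicate 2. Stat2, a transcription factor of interferon signalling, had 60.7% covered in replicate 1 and 60.2% in replicate 2. Jak3, the kinase of the lymphoid common gamma chain, had 37.8% in replicate 1 and 56.6% in replicate 2. Jak3 overlaps Insl3, and outside other genes its share was 41.8% in replicate 1 and 62.6% in replicate 2. Stat6 lay just under the threshold with 8.58% and 9.39%, while Stat4 had 0 in replicate 1 and 0.328% in replicate 2.

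Among genes that restrain the pathway, 9 of 14 were marked, against 37.2% of all coding genes. The highest was Pias4, a SUMO ligase that binds STATs, with 85.0% in replicate 1 and 82.1% in replicate 2, followed by its relatives Pias3 with 55.2% and 55.0% and Pias2 with 55.7% and 47.4%. Pias1, of the same family, was not marked, with 12.5% in replicate 1 and 8.61% in replicate 2. Socs2 had 46.9% in replicate 1 and 42.6% in replicate 2, and Ptpn6, which encodes the phosphatase SHP1, had 41.9% and 40.8%. Socs3 stood above Socs2 in each replicate, and Socs5 had no covered base in either. Socs1, an inhibitor that acts directly on JAKs, had 0 in replicate 1 and 12.3% in replicate 2, so the samples disagreed about it. The median of the 14 was 31.8% in replicate 1 and 27.3% in replicate 2. Cish, counted among the 9 marked genes, overlaps other annotated genes. Outside them it had 1.19% covered in replicate 1 and 0 in replicate 2, so its value could not be told apart from theirs.

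Of 7 adapters that join SHP2 to Ras, 5 were marked, against 37.2% of all coding genes. Gab1, the docking protein of SHP2, had 79.5% covered in replicate 1 and 72.3% in replicate 2, and its relative Gab2 had no covered base in either. Sos1, an exchange factor for Ras, had 49.4% in replicate 1 and 42.6% in replicate 2, and its relative Sos2 had none. Shc1 had 54.3% and 57.2%, Grb2 43.8% and 33.0%, and Frs2 18.7% and 13.97%. In both pairs 1 gene was marked and its relative was bare. The median of the list was 43.8% in replicate 1 and 33.0% in replicate 2.

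Known STAT3 targets of ES cells were marked in 9 of 10 cases, against 37.2% of all coding genes. The median of the list was 57.7% in replicate 1 and 65.3% in replicate 2. The transcription factor gene Klf5 had 90.1% in replicate 1 and 89.0% in replicate 2. Tfcp2l1, another transcription factor gene, had 84.9% and 79.0%. Mcl1, a survival factor, had 81.6% in replicate 1 and 82.1% in replicate 2, and Klf4 had 57.1% and 56.2%. Myc was the lowest of the marked ones with 33.9% in replicate 1 and 33.7% in replicate 2. Junb had 12.6% in replicate 1 and 0 in replicate 2, and so was not marked.

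**Figure D5:**
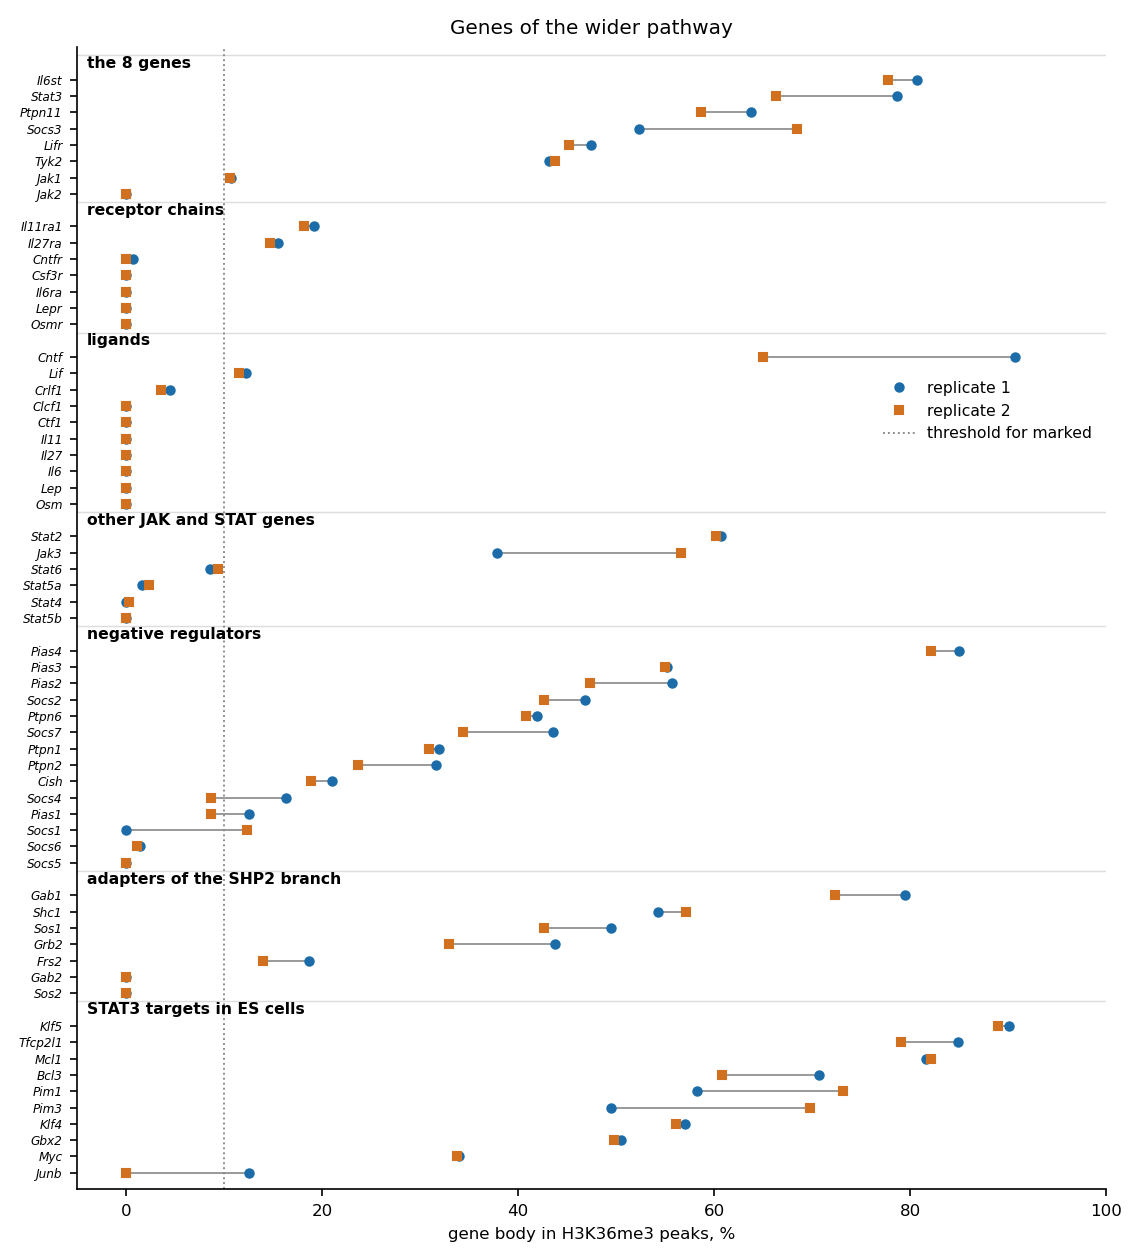
Covered share of the gene body (x axis, %) of the 8 genes and of the 6 wider lists (rows, ordered by mean within each list) in replicate 1 (circles) and replicate 2 (squares), with the 10% threshold dotted. Of the receptor chains 2 of 7 lie above the threshold in both replicates, and of the STAT3 targets 9 of 10, against 37.2% of all coding genes.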

How the data were processed

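H3K36me3 ChIP-seq peaks of 2 biological replicates of E14TG2a.4 cells were used. Per the deposited file lists, the authors called narrow peaks on mm10 separately for each replicate and kept those that random splits of the same library upheld (pseudoreplicates). In the deposited sets each peak has a fold enrichment (a ratio over background) and a q-value written as −log10, as the authors' caller gave them. Which aligner and caller were used, and how many reads, is not given in the sources used here. The control libraries, the mm9 set and the pooled unthresholded set were not used here. A narrow caller breaks a broad mark into many peaks, and peak calls depend on sequencing depth, so bases covered were measured and differences between replicates may come from depth, which is unknown. The cells are of another strain than the reference.

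Gene bodies came from GENCODE M21 (GRCm38, the assembly mm10 names). Of 21938 coding records the longest per symbol was kept (21911). Exon blocks were merged over transcripts; single transcripts were those with the longest coding sequence. Positions used genes of at least 3 kb, cut in 3 equal segments (5′, middle and 3′) or 10 equal parts. The percent of 32-base words found once in the genome was taken every 20 bases. Promoter sequences came from RefSeq on GRCm38, 250 bases before to 50 after a start; all 8 members matched.

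Members and lists were chosen with earlier results of these data known. All members were named, any gene of lists of up to 10 genes, the 5 highest and 5 lowest negative regulators, the closest profile within 1.5 times a member's length, and neighbours within 5 kb. Cish was named in addition, because of its overlap with other annotated genes. Not every gene this rule selects is described. A gene of the wider lists is not reported here and is left out of their counts. The number of columns of per-sample values left unused was 0. No test was made, since there was 1 group. Alternatives were the unthresholded sets, the authors' combined sets, a minimum −log10 q of 5, leaving out 1 replicate, thresholds of 5, 25 and 50%, bases in no other gene, the longest coding transcript, the 3′ segment alone and pooled bases. The placement of peaks was checked on simulated data, where 100% of 200 genes were recovered. Python 3.11.15, numpy 2.4.6, pysam 0.24.0 and matplotlib 3.10.9 were used.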

Additional observations from a re-analysis of the deposited data

How the results depend on the processing

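The number of marked members was 7 in the unthresholded, combined and pooled sets and without either replicate, 6 with −log10 q of at least 5 or a threshold of 25%, where Jak1 was lost, and 4 at 50%. Over bases in no other annotated gene Tyk2 had 24.4% in replicate 1 and 7.16% in replicate 2. It was therefore not marked there, while the other marked members stayed marked. In the wider lists the number of marked genes was 29, with 31 in the unthresholded sets and 33 or 34 in the combined and pooled sets. It was 29 with −log10 q of at least 5, 30 without replicate 1 and 32 without replicate 2. At thresholds of 5, 25 and 50% it was 32, 23 and 12. The median covered share of members (50.9%) was 56.1% in the unthresholded sets, 49.4% with −log10 q of at least 5, 63.7% and 65.4% in the sets of peaks found in both replicates, 62.1% in the pooled set and 63.7% over the longest coding transcripts. The median difference between the 3′ and 5′ segments ran from 38.2 to 72.7 points with 1 replicate left out. For Lifr it turned to −5.63 points over the Lifr-203 transcript, which leaves out the bare 5′ part, and for Tyk2 it was −2.67 points without replicate 2 and 30.1 points without replicate 1. The median difference between exons and introns (25.8 points) was 34.3 points with bases pooled over members and −4.66 points within the 3′ segment, where Lifr (−11.3), Il6st (−10.6) and Ptpn11 (−17.7) were negative. Socs3 has no intron there and Tyk2 no 3′ segment outside its antisense gene, so both were left out of those alternatives. For covered shares of single members other than Jak2, leaving out the values with 1 replicate, 21 of 49 alternative values moved by less than the SD between replicates, 24 were higher and 4 lower. No paired analysis was possible because the replicates form 1 group. With 2 samples and no read counts, an SD is only a rough guide and a covered share of 0 has no upper limit.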
